A study of Mus musculus with 12 samples.

Results

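Skeletal muscle from mice that combined voluntary wheel running with loss of the growth inhibitor myostatin was compared with muscle from mice that had neither. In triceps brachii, 215 of 7261 genes differed between the active myostatin-reduced (AM) and the inactive wild-type (IW) mice, 88 of them higher and 127 lower in AM. The lower genes included Mstn itself, Zmynd17, Igfn1, Lancl1, the glucose-transport regulator Tbc1d1 and the Smad inhibitor Pmepa1. The higher genes included the cardiac actin gene Actc1, the hypoxia-responsive hydroxylase gene Egln3, the kinase gene Pak1 and mitochondrial creatine kinase Ckmt2. Of 72 nuclear genes of oxidative phosphorylation tested, 8 (against 1.21% of all genes) were higher, and 0 of them were called without IW replicate 2, without AM replicate 2 or in a fit of the 6 mice alone.

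The 6 mice compared, 3 IW and 3 AM, were part of a series of 12. The members were all genes with a mean of at least 10 normalised reads over these 6 mice, 7261 of the 10187 genes in the table, and 2926 genes were not tested. A normalised read count is the number of reads assigned to a gene after the study scaled each library to an equal trimmed mean, and it was not divided by gene length. The remaining groups, active wild-type (AW) and inactive myostatin-reduced (IM), also had 3 mice each.

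All 12 mice were male C57/BL6 animals and all ate chow with 0.025% tamoxifen for 6 weeks in total, so tamoxifen was common to every group. In myostatin-reduced mice exon 3 of Mstn was floxed, that is flanked by recognition sites of Cre recombinase, which tamoxifen activated in the adult animal. Wild-type mice had the normal gene. The promoter that drives Cre, and whether the wild-type mice carried Cre, were not given in the sources used here. At 6 months of age active mice were moved to single cages with a running wheel for 12 weeks, so the wheel and single housing cannot be told apart. The genotypes were matched for running behaviour. Replicates were separate mice.

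Myostatin is a secreted protein of the transforming growth factor beta family that limits muscle mass. It is cut from a precursor, binds activin type II receptors with a type I partner and acts through Smad proteins. Muscle that lacks it is larger and tends toward fast glycolytic fibres, whereas endurance running is known for raising mitochondrial enzymes, capillaries and oxidative fibres.

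The targeted sequence is shown first because it links the genotype to the transcript. Mstn (chr1:53118507-53124923, mm9, plus strand) has 3 coding exons, and exon 3 holds 378 coding bases at chr1:53123095-53123472. Its first 120 coding bases (chr1:53123095-53123214, mm9, plus strand) are printed 5′ to 3′, and the capitals mark the codons of the basic site at which the propeptide is cut from the mature growth factor.
Mstn exon 3: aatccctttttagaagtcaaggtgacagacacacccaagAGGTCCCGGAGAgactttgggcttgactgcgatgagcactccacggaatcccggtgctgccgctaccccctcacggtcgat
The mature growth factor lies downstream of the capitals and is therefore encoded within the floxed exon.

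Mstn levels in IW mice were 79.7, 138 and 131 normalised reads, and in AM mice they were 16.1, 8.70 and 13.5. Every AM value was below every IW value, and the mean was 89.02% lower. The log2 change was -3.09 with a standard error (SE) of 0.223 (adjusted p = 1.92e-05, limma on log2(value + 1) in 12 mice, Benjamini-Hochberg adjustment over 7261 genes). The levels in IM mice were 18.3, 17.2 and 21.6 and in AW mice 110.3, 90.1 and 80.8. The transcript separated the mice by genotype at both activity levels, with no overlap. Reads of all exons were counted, so the level also covers exons that were not floxed. In bulk tissue, fewer cells of a type and less RNA per cell cannot be told apart.

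Genes were called at an adjusted p-value under 0.05 from limma, a linear model in which the 4 groups shared 1 estimate of the spread. The calls were 2.96% of the genes tested, 1.21% in the direction of higher expression in AM and 1.75% lower. At an unadjusted p-value under 0.05 there were 1460 genes. The IW and AM mice did not overlap in 1527 genes, 21% of those tested, and all 215 called genes were among these. The changes were mostly small: the median absolute log2 change of the called genes was 0.45, 132 were under 0.5, and 17 exceeded 1, of which 6 were higher and 11 lower. With 3 mice against 3, an exact permutation test of 1 gene cannot give a p-value below 0.1, so no such test was used.

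The number of calls depended on individual mice. It was 71 without IW replicate 1, 60 without IW replicate 2, 67 without AM replicate 2, 131 without AM replicate 3 and 138 without IM replicate 1. A fit of the 6 mice alone called 38 genes, 37 of them among the 215. Of the 24 genes named for the size of their change, that fit did not call Actc1, Xdh, Ckmt2, Mid1ip1, Dusp7, Cilp, ORF63 and Mylk4, and it called none of the list members named further on that are not among the 24. Of the same 24, 14 were called under every alternative in which they were tested, namely Mstn, 4832428D23Rik, Egln3, Pak1, Tnfaip2, Stom, Igfn1, Zmynd17, Lancl1, Tmem100, Tbc1d1, Pmepa1, Ramp1 and Fbp2.

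Summed library values were similar, at 927958 to 1080140 normalised reads, and the estimated depth was 9024083 to 12184719 reads per mouse. The muscle fibre markers, such as Acta1 and Ckm, summed to 94535 to 103218 in IW and 92488 to 104755 in AM. Of these 9 markers 0 were called, against 2.96% of all genes. The summed markers of other cell types overlapped between IW and AM for adipocytes (124 to 178 against 135 to 229.8), macrophages and leukocytes (125 to 138 against 119 to 152), Schwann cells (40.6 to 83.2 against 43.8 to 83.4) and fibroblasts and tendon (161 to 190.3 against 146 to 184). Of these, 2, 3, 3 and 5 markers were tested and none was called, against 2.96% of all genes. With so few markers, the lack of a call does not show equal cell content. Of the erythroid markers 1 was in the table, at 3.61 to 7.19 in these mice, below the filter.

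**Figure D1:**
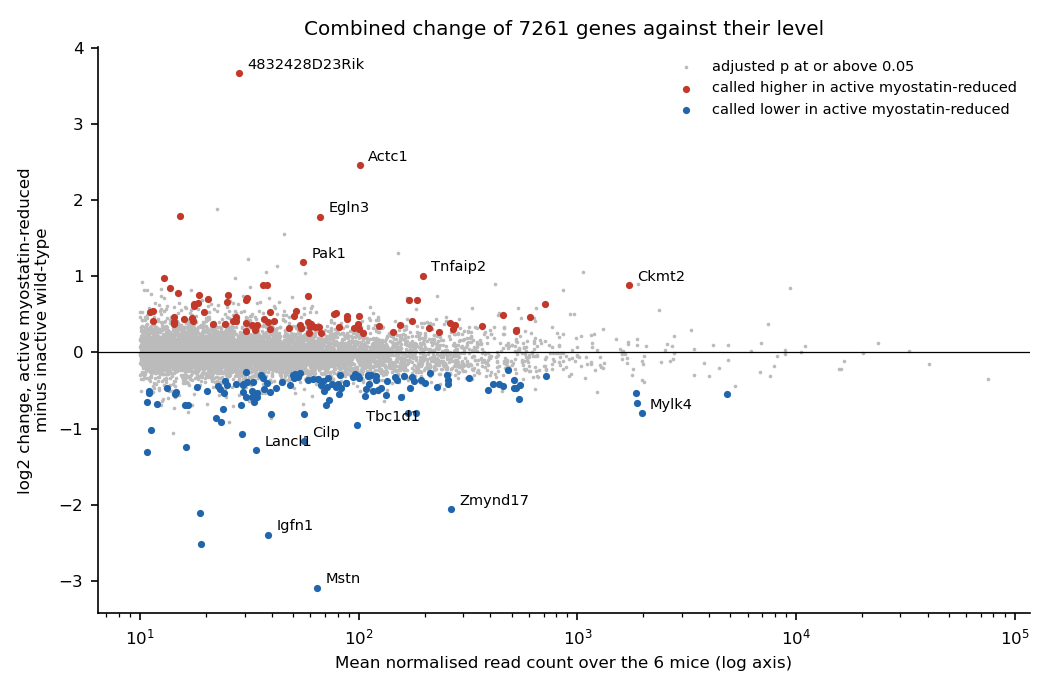
Each point is 1 of the 7261 genes, with its mean normalised read count over the 6 mice on a log axis and its log2 change, AM minus IW, on the vertical axis. The 88 red and 127 blue genes were called, and Mstn (-3.09) and 4832428D23Rik (3.67) lie farthest from 0.

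Among genes higher in AM, the largest change was in 4832428D23Rik (chr1:44260915-44275806, mm9), which RefSeq (GRCm38.p6) names Mettl21e, a methyltransferase-like gene. Its levels were 3.95, 2.95 and 2.71 in IW and 40.2, 50.3 and 70.4 in AM (log2 change 3.67, SE 0.193, adjusted p = 8.95e-07 by limma). The IM mice, at 75.2, 83.8 and 58.9, overlapped the AM mice, and the AW mice, at 8.40, 6.33 and 6.67, lay between IW and AM. The gene lies 8.84 Mb from Mstn on the same chromosome.

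Actc1 (chr2:113873018-113879284, mm9) encodes cardiac alpha-actin, the form that skeletal muscle makes before birth. Its levels were 18.3, 71.2 and 18.7 in IW and 189, 156 and 152 in AM, and in the IM mice they were 186, 152 and 240.3. IW replicate 2 stood above the other IW mice but below every AM mouse. The log2 change was 2.46 (SE 0.412, adjusted p = 0.0109, limma), and the call was lost in the fit of 6 mice. Reads can be shared among near-identical actin genes, so the value is uncertain to that extent. Pak1, a kinase that acts downstream of Rac and Cdc42, was 28.6, 36.7 and 35.2 in IW and 89.7, 64.03 and 79.8 in AM, a log2 change of 1.19 (SE 0.121, adjusted p = 0.00033). Tnfaip2, named as a target of tumour necrosis factor, was 153, 118 and 118 in IW and 229.9, 311 and 249 in AM, a log2 change of 1.01. For Pak1 and Tnfaip2, AW and IM mice both had means between those of IW and AM.

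Egln3 (chr12:55279968-55304847, mm9) encodes a prolyl hydroxylase of hypoxia-inducible factor. Its levels were 35.7, 21.1 and 31.4 in IW and 94.2, 137 and 80.5 in AM, and the lowest AM mouse was above the highest IW mouse (log2 change 1.78, SE 0.220, adjusted p = 0.0016, limma). The AW mice were at 67.3, 102 and 104 and the IM mice at 25.3, 25.3 and 22.5, so the active mice of both genotypes were high and the inactive mice of both were low. Ckmt2, the mitochondrial creatine kinase that passes energy from ATP to creatine, had the same arrangement. It was 1447, 1068 and 1123 in IW, 2310.2, 2547 and 1852 in AM, 1695, 2623 and 2514 in AW and 1097, 999 and 905 in IM. Its log2 change of 0.88 (adjusted p = 0.0209) was no longer called without IW replicate 2 or 3, without AM replicate 2 or in the fit of 6 mice.

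Among called genes with a mean of 20 or more, the other 6 of the 12 with the largest rise had log2 changes between 0.71 and 0.88. Xdh, which makes uric acid from purines, rose from 29.1, 21.2 and 25.4 to 39.6, 59.3 and 44.4 (log2 change 0.88). Plin3, a coat protein of lipid droplets, rose from 27.1, 23.8 and 27.6 to 51.4, 58.3 and 39.1 (log2 change 0.88). Mid1ip1, which promotes the activity of acetyl-CoA carboxylase in fatty acid synthesis, changed by 0.75, and the membrane proteins Stom and Car14, the latter a carbonic anhydrase, by 0.74 and 0.71. Dusp7, a phosphatase of the kinase ERK, changed by 0.71 on the log2 scale. None of the 6 overlapped between IW and AM, which was a condition of being named. Their adjusted p-values by limma were between 0.00746 (Stom) and 0.018 (Dusp7). Mid1ip1 and Dusp7 were not called without IW replicate 1, Plin3, Car14 and Dusp7 were not called without IW replicate 2, and Car14 and Dusp7 were not called without AM replicate 2. In the fit of 6 mice Xdh, Mid1ip1 and Dusp7 were not called.

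Among genes lower in AM, Igfn1 (chr1:137850155-137902919, mm9), a muscle protein with immunoglobulin-like and fibronectin domains, had levels of 46.7, 70.95 and 76.8 in IW and 14.9, 13.9 and 6.80 in AM. Each single group stayed nearer to IW: AW was 49.1, 16.1 and 57.1 and IM was 43.7, 46.6 and 53.98, with 1 AW mouse close to the AM range. The log2 change was -2.39 (SE 0.392, adjusted p = 0.0094, limma), and the departure from additivity described below was -1.19 with an unadjusted p of 0.0528.

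Zmynd17 (chr14:21302086-21316123, mm9), a zinc-finger gene expressed in skeletal muscle, was 410.2, 352 and 513 in IW and 87.2, 89.3 and 129.6 in AM (log2 change -2.06, SE 0.190, adjusted p = 0.000144, limma). It was 292, 214 and 207 in AW and 111, 146 and 156 in IM, so all 9 mice with running, myostatin loss or both lay below the 3 IW mice. Tbc1d1, a Rab GTPase-activating protein in the traffic of glucose transporters, had the same order. It was 145, 126 and 119.5 in IW, 69.2, 67.3 and 63.5 in AM, 89.2, 71.3 and 79.4 in AW and 63.98, 62.7 and 83.5 in IM (log2 change -0.95, adjusted p = 0.0016). Fbp2, the muscle fructose bisphosphatase, was 51.3, 49.2 and 51.4 in IW, 24.3, 30.4 and 31.5 in AM, 46.5, 36.9 and 34.5 in AW and 43.2, 37.8 and 36.6 in IM. Its 2 single groups lay between IW and AM without overlapping either (log2 change -0.80, adjusted p = 0.00445).

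In Lancl1, Ramp1 and Tmem100 the myostatin-reduced mice were low whether active or not. Lancl1, a glutathione-binding protein, fell from 45.9, 51.2 and 48.3 to 19.99, 18.6 and 19.6, with IM at 17.7, 21.6 and 20.2 and AW at 50.3, 40.3 and 39.8 (log2 change -1.28, adjusted p = 2.34e-05, limma). Ramp1, a partner of the receptor for calcitonin gene-related peptide, fell from 77.5, 59.04 and 79.4 to 36.2, 43.9 and 41.4, with IM at 41.1, 38.5 and 36.5 and AW at 62.4, 59.4 and 67.3 (log2 change -0.81). Tmem100, a transmembrane protein, changed by -1.07 and was 19.7, 17.9 and 16.99 in IM against 35.7, 29.98 and 26.03 in AW. For these 3 genes the 6 myostatin-reduced mice did not overlap the IW mice. The matrix protein Cilp changed by -1.16, with AW at 66.3, 46.2 and 78.3 and IM at 34.4, 38.8 and 56.8. ORF63 changed by -0.86, and both single groups were low, AW at 16.8, 18.3 and 13.3 and IM at 15.5, 15.1 and 20.5. Mylk4, of the myosin light chain kinase family, changed by -0.80, with the active AW mice at 1924, 1339.7 and 1526 and the inactive IM mice at 2423, 2434 and 2840.2. Each of the last 3 lost its call without IW replicate 1, without IW replicate 2 and in the fit of 6 mice, and Cilp and ORF63 lost it with sample weights. Cilp also lost it without AM replicate 1 or 3, Mylk4 without AM replicate 2, and ORF63 without AM replicate 2, IW replicate 3, IM replicate 1 or IM replicate 2.

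**Figure D2:**
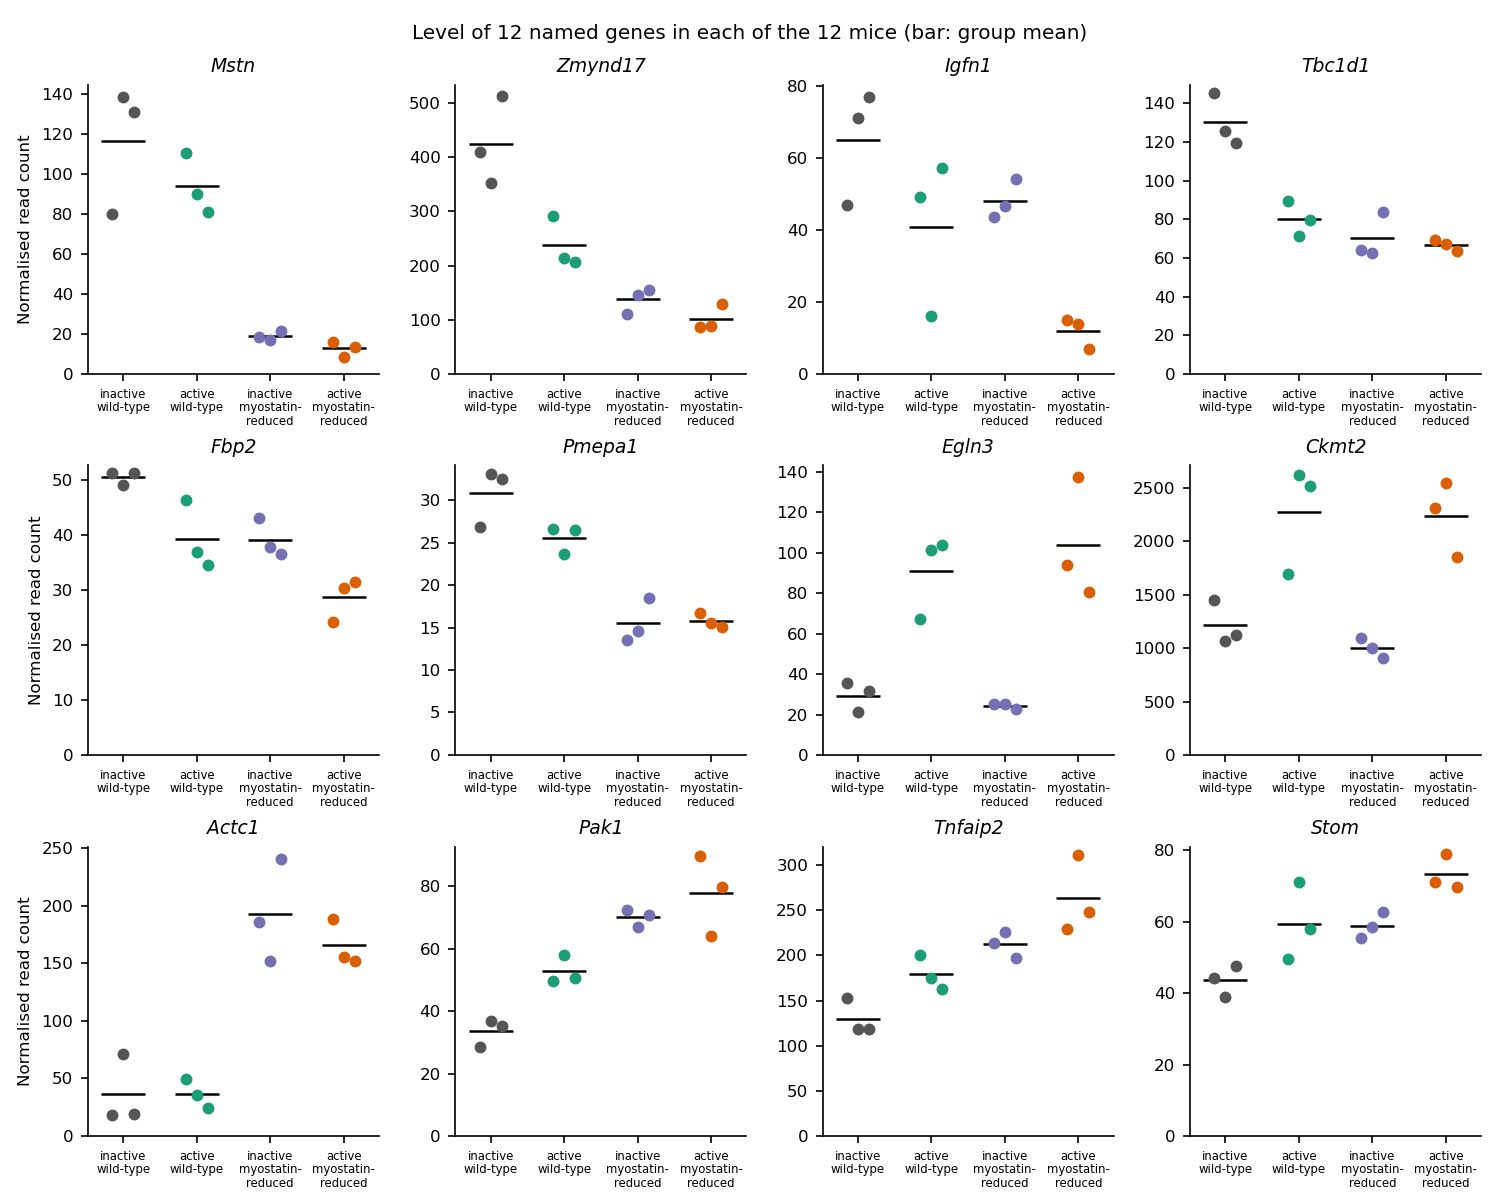
Each panel shows the normalised read counts of 1 gene in the 12 mice, grouped by genotype and activity, with a bar at the group mean and an axis that starts at 0. In Egln3 and Ckmt2 both active groups are high, in Mstn, Actc1 and Pmepa1 the myostatin-reduced groups stand apart, and in Igfn1, Fbp2, Tnfaip2 and Stom the AM mean is the most distant from IW.

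The myostatin pathway list held 17 tested genes, of which 4 fell, Mstn itself included, and none rose, against 1.75% lower and 1.21% higher over all genes. Its median log2 change was -0.058 against -0.0062 over all genes tested. Besides Mstn the called members were Pmepa1, Acvr1b and Ltbp3. Pmepa1, which is induced by Smad signalling and restrains it, was 26.9, 33.1 and 32.5 in IW and 16.8, 15.6 and 15.1 in AM (log2 change -0.92, SE 0.115, adjusted p = 0.00171, limma), with IM at 13.6, 14.6 and 18.5 and AW at 26.6, 23.7 and 26.5. Acvr1b, a type I receptor used by activin and myostatin, was 50.95, 50.9 and 43.6 in IW and 36.3, 31.04 and 36.8 in AM (log2 change -0.47), and here the low group was AW, at 40.1, 35.3 and 32.9, while IM was 45.9, 48.6 and 49.5. Ltbp3, which holds latent growth factor in the matrix, was 76.4, 88.99 and 92.7 in IW and 57.9, 66.6 and 68.1 in AM (log2 change -0.42), and all 6 AW and IM mice were below the IW mice. The Acvr1b call was lost without IW replicate 1 or 2 or AM replicate 2, and the Ltbp3 call without IW replicate 2 or 3 or AM replicate 2.

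Of the nuclear genes of oxidative phosphorylation, 8 rose in AM and none fell. All 72 tested nuclear genes of oxidative phosphorylation, the chain that turns oxygen and fuel into ATP, had a positive log2 change, with a median of 0.24 (range 0.022 to 0.51), and the 8 called compare with 1.21% of all genes. All 72 were also positive after median-of-ratios and after upper-quartile scaling. The called members were Atp5g3, Atp5g1 and Atp5j2 of ATP synthase, Ndufb10, Ndufb5, Ndufs6 and Ndufc1 of complex I, and Cox5a of complex IV. The number called was 0 without IW replicate 2, 0 without AM replicate 2, 2 without IW replicate 1, 2 without AM replicate 3, 3 without IW replicate 3 and 0 in the fit of 6 mice. It was 4 without any 1 of the IM mice, AW replicate 2 or AW replicate 3, and 13 without AW replicate 1. With all mice it was 4 without the variance trend or with the replicate number as a block and 5 with sample weights. Leaving out a mouse left 71 or 72 members positive.

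Among these genes Atp5g3 and Atp5g1 both encode the membrane-ring subunit of ATP synthase. Atp5g3 (chr2:73746504-73749383, mm9) was 549.8, 469.6 and 517 in IW and 661, 743 and 708 in AM (log2 change 0.46, SE 0.0941, adjusted p = 0.023, limma). Atp5g1 was 67.2, 55.04 and 67.2 in IW and 86.4, 105 and 80.5 in AM (log2 change 0.51). Ndufb10 was 241, 214 and 227 in IW and 282, 313 and 298 in AM, and Cox5a was 487, 456 and 473 in IW and 539, 599 and 602 in AM. Every AM mouse lay above every IW mouse in each of the 4 genes, but no called gene overlapped. Of the 72 members 48 did not overlap between the groups, against 21% of all genes. Atp5g3 was 412, 410.0 and 376 in IM, below every IW mouse, and 622, 738 and 796 in AW, which overlapped AM.

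Per mouse, the oxidative phosphorylation score, which is the mean log2 level of the 72 genes relative to the mean of the 12 mice, was -0.0084, -0.16 and -0.068 in IW and 0.059, 0.23 and 0.15 in AM. All AM mice were above all IW mice. Scores also separated for the tricarboxylic acid cycle and malate-aspartate shuttle (highest IW 0.054, lowest AM 0.12) and oxygen storage and hypoxia response (0.081, 0.14). The same held for creatine kinase and adenylate buffering (-0.0076, 0.023), heat shock (0.019, 0.024) and actins (-0.095, 0.21). In the opposite direction the myostatin pathway, immediate early and protein breakdown scores separated. The median change of the list was 0.29 for AW against IW and -0.20 for IM against IW. These comparisons share the IW mice with the combined one and are given side by side only.

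**Figure D3:**
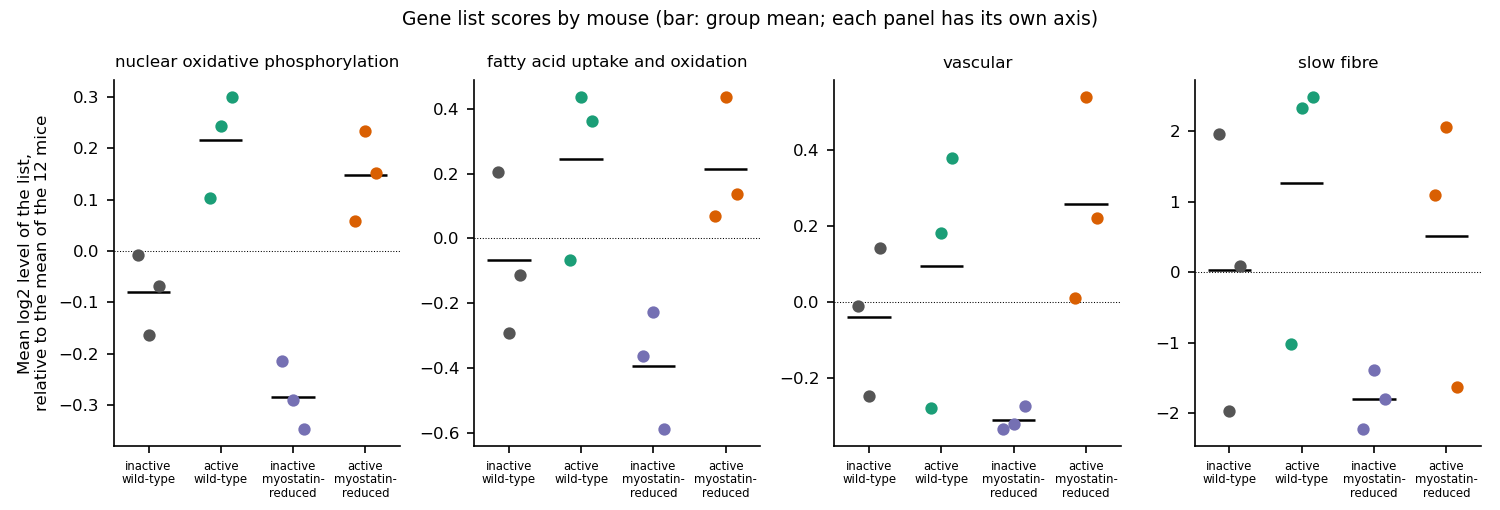
Each point is the score of 1 gene list in 1 mouse, the mean log2 level of its tested members relative to the mean of the 12 mice, and bars mark group means. Among the lists shown, the AM mice lie above the IW mice for oxidative phosphorylation, whereas the groups overlap for fatty acid, vascular and slow-fibre genes. Other lists that are not shown also separated.

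The other fuel lists had at most 1 call in each direction, which for lists of 10 to 30 genes is to be read against 1.21% higher and 1.75% lower over all genes. Of 13 mitochondrially encoded genes, which were counted apart from the nuclear ones, ND5 (mt) of complex I rose from 369.7, 434 and 338 to 495, 581 and 523 (log2 change 0.49, adjusted p = 0.0283, limma), and the list median was 0.11. That median was 0.22 without IW replicate 2, 0.18 without AM replicate 1 and 0.079 without IW replicate 3. The call of ND5 (mt) was lost without IW replicate 1 or 3 and without AM replicate 2 or 3, and in the fit of 6 mice. Of 20 genes of the tricarboxylic acid cycle and malate-aspartate shuttle, Mdh1, the cytosolic malate dehydrogenase, rose from 673, 480.1 and 523 to 861, 969 and 759.9, and the median was 0.19. Of 30 genes of fatty acid uptake and oxidation, Eci2, an isomerase needed to oxidise unsaturated fatty acids, rose from 60.3, 48.7 and 48.3 to 67.02, 73.02 and 64.8, and 26 members had positive changes with a median of 0.33. The fatty acid score overlapped between the groups, at -0.29 to 0.20 in IW and 0.069 to 0.44 in AM.

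Ketone and branched-chain amino acid oxidation, with 18 genes tested, had 1 call in each direction. Hibadh of valine breakdown rose from 134, 126 and 129 to 161, 157 and 152, and Pcca, a subunit of propionyl-CoA carboxylase, fell from 98.4, 107 and 92.96 to 75.03, 75.9 and 73.05 (log2 change -0.41, adjusted p = 0.00768, limma). Bdh1, the ketone dehydrogenase, was 43.3, 10.5 and 18.5 in IW and 69.7, 91.1 and 38.3 in AM and was not called. The 29 genes of glycolysis and glycogen had a median of 0.012 with 1 call each way. Pfkfb1, which sets the level of a fructose bisphosphate that controls glycolysis, rose from 49.96, 48.2 and 43.7 to 62.98, 61.1 and 58.5, while Fbp2 fell as described. Ckmt2 was the 1 call among 10 genes of creatine kinase and adenylate buffering, and Egln3 the 1 call among 11 genes of oxygen storage and hypoxia response. The calls of Mdh1, Eci2, Hibadh and Pfkfb1 were each lost without any 1 of several mice of all 4 groups.

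None of the 18 mitochondrial regulators was called, against 2.96% of all genes. Ppargc1a, the coactivator that drives mitochondrial genes, was 66.4, 56.4 and 48.1 in IW and 61.9, 56.1 and 48.6 in AM, so the groups overlapped throughout and the log2 change was -0.031 (SE 0.132). None of the 20 vascular genes was called higher either, against 1.21% of all genes, while 19 of 20 had positive changes and the median was 0.34. The median was 0.22 without IW replicate 2 and 0.20 without AM replicate 2. Pecam1, a marker of endothelial cells, was 55.9, 49.6 and 62.2 in IW and 55.4, 92.7 and 73.8 in AM, and Cdh5, the endothelial cadherin, was 87.5, 72.97 and 103 and 87.3, 148 and 121. Kdr, a receptor for vascular endothelial growth factor, was 78.5, 65.6 and 76.9 in IW and 65.2, 116 and 88.3 in AM. In all 3 genes AM replicate 1 lay within the IW range or below it and AM replicate 2 was the highest of the 6 mice.

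Slow-fibre genes varied more between mice of 1 group than between the groups. Their summed level was 1369.7, 94.3 and 312 in the IW mice and 641, 1343 and 117 in the AM mice, and 0 of 11 were called, against 2.96% of all genes. The list median of 0.50 turned to -0.66 without IW replicate 2 and -0.46 without AM replicate 2, and it was 1.52 without IW replicate 1, 1.51 without AM replicate 3 and 0.12 without AM replicate 1. Myh7, the slow myosin heavy chain, was 376, 1.29 and 63.1 in IW and 164, 393 and 2.73 in AM (log2 change 0.71, SE 1.95), and its sign turned without IW replicate 2 (-1.32) or AM replicate 2 (-0.62). Among fast-fibre genes Mylk4 was the 1 call of 18, against 1.75% of all genes called lower, from 2486, 2647 and 2304 in IW to 1708, 1050.0 and 1606 in AM. Myh4, the fastest heavy chain, was 73727, 96845 and 82555 in IW and 66296, 54103 and 78856 in AM, and Myh2, the fast oxidative chain, was 2515, 627 and 968 and 2932, 3323 and 1015, with overlap in both. Mb, which encodes the oxygen store myoglobin, was 2991, 1098 and 1825 in IW and 2704, 3565 and 1969.6 in AM and also overlapped. With the slow-fibre score as a covariate 430 genes were called, including all 215. Of all 7261 genes 213 were then called higher, and of the 72 oxidative phosphorylation genes 20 were. The part of fibre composition in single-gene results was not otherwise tested.

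Growth signalling, with 26 genes tested, had 1 call each way, Pak1 higher and Tsc1 lower, against 1.21% and 1.75% over all genes. Tsc1, which restrains the growth kinase mTORC1, was 133, 141 and 129 in IW and 112, 102 and 99.7 in AM, while AW was 118, 116 and 120.3 and IM 123, 135 and 128 (log2 change -0.37, SE 0.0649, adjusted p = 0.0133, limma). Of 22 genes of protein breakdown and autophagy, Foxo4, a transcription factor of the FoxO family, fell from 214, 218 and 219 to 158, 175 and 173 (log2 change -0.36), and the list median was -0.13. Rcan1, an inhibitor of calcineurin in the list of 17 neuromuscular junction and calcium genes, fell from 106, 92.1 and 91.2 to 60.8, 74.4 and 73.9, and IM overlapped AM at 56.5, 65.5 and 59.7. Without IW replicate 2 the calls of Tsc1 and Rcan1 were lost, and Tsc1 was also lost without AM replicate 2 and Rcan1 without IW replicate 1.

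Immediate early genes, the first to respond to a stimulus, had the lowest list median, -0.38 over 11 genes. Only Cyr61 was called, at 33.6, 19.00 and 17.6 in IW and 6.38, 11.6 and 9.33 in AM, and the call was lost without IW replicate 1 or 2 or AM replicate 1 or 3. Timp2, an inhibitor of matrix proteases, was the 1 call among 23 matrix genes, from 101, 111 and 101 to 84.6, 85.5 and 80.00. Hspa1l, of the heat shock protein 70 family, was the 1 call among 19 heat shock genes, from 38.4, 37.8 and 41.96 to 32.2, 31.5 and 31.8. Each of the last 2 fell and lost its call without any 1 of several mice. No member was called among 8 myogenic regulators, 18 circadian clock genes or 13 glucocorticoid and stress genes, and the medians of these lists were 0.0068, -0.098 and -0.0064. In the list of actins and developmental myosins only 4 actins, Actc1, Actb, Acta1 and Acta2, were tested, and Actc1 was the 1 call. The single calls in these lists are to be read against 2.96% of all genes.

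**Figure D4:**
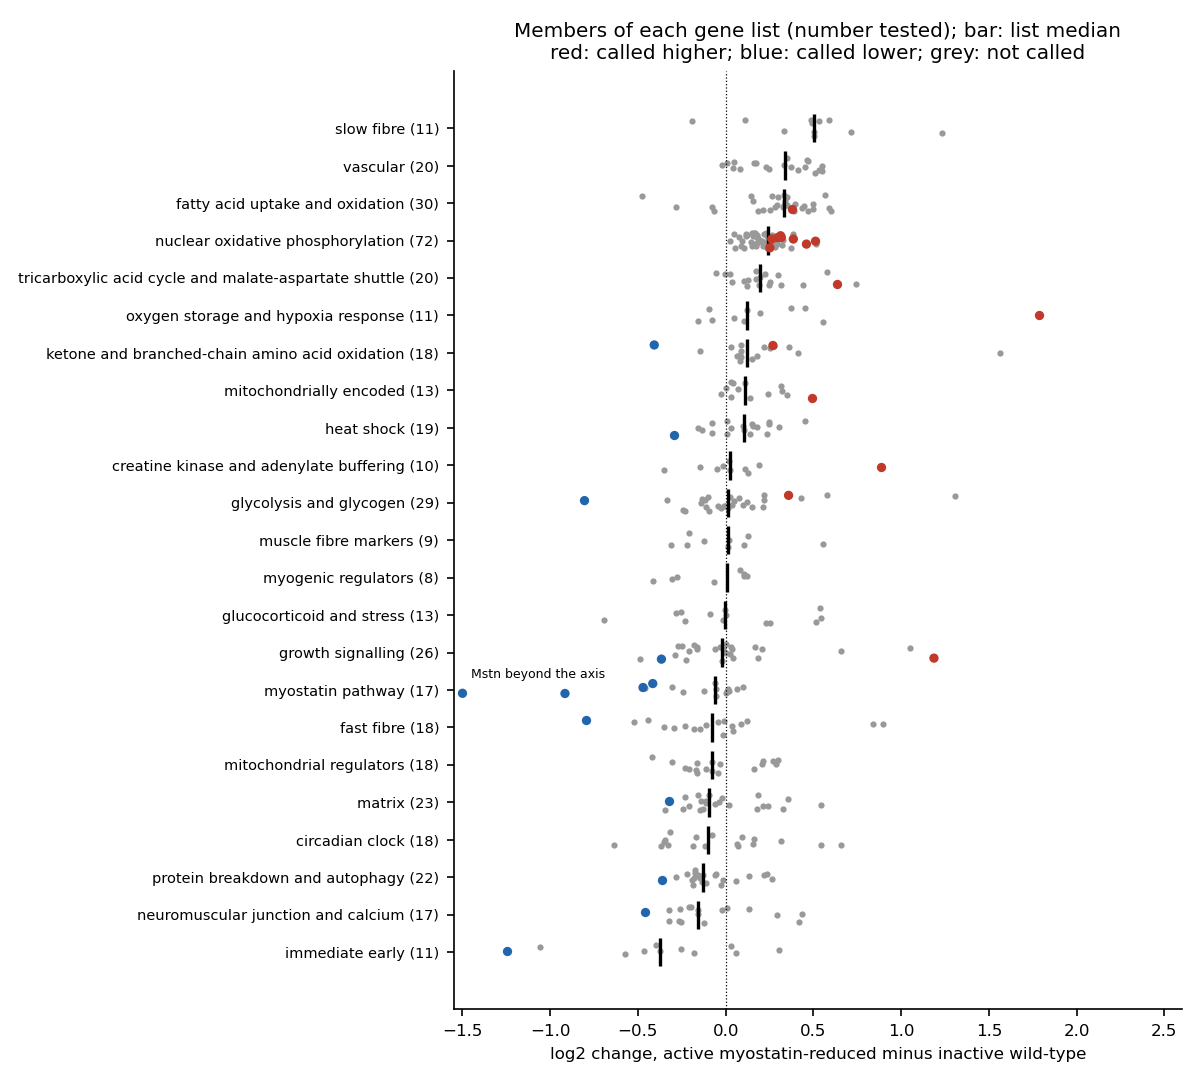
Each point is the log2 change, AM minus IW, of 1 member of a gene list, for the lists with at least 8 tested members, and black bars are list medians. The oxidative phosphorylation genes lie wholly to the right of 0, the slow-fibre median of 0.50, which is -0.66 without IW replicate 2, comes without a called gene, and Mstn is drawn at the left edge because its change of -3.09 lies beyond the axis.

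The promoter of Atp5g3 is shown because it was the 1 promoter among the called genes that held the binding element of the estrogen-related receptors, factors known to act on mitochondrial genes. The 250 bases before the annotated start are from the RefSeq promoter table (GRCm38.p6, chr2:73911327-73911576, minus strand), printed 5′ to 3′ on the gene's strand. The capitals mark, in order, an E-box at positions -238 to -233 and the receptor element, on the opposite strand, at -52 to -44.
Atp5g3 promoter: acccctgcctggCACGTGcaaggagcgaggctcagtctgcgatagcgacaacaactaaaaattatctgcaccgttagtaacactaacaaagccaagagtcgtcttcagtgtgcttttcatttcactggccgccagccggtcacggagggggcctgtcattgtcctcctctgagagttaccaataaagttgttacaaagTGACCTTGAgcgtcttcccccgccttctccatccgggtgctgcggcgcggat
Windows were matched by symbol for 70 of the 88 higher, 94 of the 127 lower and 5306 of the 7261 tested genes. Only the 250 bases before the start were searched, on both strands. A gene was counted if any of its windows held the motif, whereas all windows were counted singly. The receptor element (TCAAGGTCA) was in 1 of 70 higher genes, 0 of 94 lower genes, 0.245% of tested genes and 0.387% of all 32851 windows. The E-box (CACGTG), bound by many helix-loop-helix factors, was in 15.7% of higher genes, 9.57% of lower genes, 10.9% of tested genes and 6.02% of all windows. The core of the element of nuclear respiratory factor 1 was CGCATGCG. It was in 4.29% of higher genes, 1.06% of lower genes, 4.3% of tested genes and 1.55% of all windows. The D-box (TTATGTAA) was in none of the called genes' windows, against 0.452% of tested genes. These are letter matches and say nothing of binding.

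Whether running and myostatin loss added up was asked with the departure from additivity, AM minus AW minus IM plus IW. None of the 7261 genes passed the threshold in limma (0% called, smallest adjusted p = 0.891), and 295 had an unadjusted p-value under 0.05, 20 of them among the 215 called genes. Without IW replicate 3 there was 1 call, Itgb1bp3. Among genes with 12-mouse means of 20 or more, the 5 smallest unadjusted p-values were those of 4832428D23Rik (0.000206), Itgb1bp3 (0.000403), Fkbp5 (0.000911), Klhdc3 (0.000978) and Tbc1d1 (0.00196), all at an adjusted p of 0.891 or above. Itgb1bp3, a nicotinamide riboside kinase, was 157, 198 and 309 in IW, 364, 296 and 309.9 in AW, 309, 300.4 and 349 in IM and 211, 216 and 179 in AM, with a departure of -1.26 (SE 0.263). For Tbc1d1 the running change in wild-type mice was -0.70 and the genotype change in inactive mice -0.89, against -0.95 combined, a departure of 0.64 (SE 0.164). A departure that misses the threshold does not show that the changes add.

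The 6 mice outside the combined comparison were compared for the same genes. Both comparisons used 1 estimate of the spread per gene from all 12 mice. A gene with a small spread is thus more likely to be called in both, so the shares below are not independent evidence. The difference AW minus IM sets running alone against myostatin loss alone, and 1357 genes were called in it (18.7%), 667 higher in AW (9.19%) and 690 higher in IM (9.5%). Of the 88 genes higher in AM than in IW, 30 (34.1%) were higher in AW, 17 (19.3%) were higher in IM and 41 were neither. Of the 127 genes lower in AM, 22 (17.3%) were higher in AW, 12 (9.45%) were higher in IM and 93 were neither. Without 1 mouse the total of 1357 became 544 (AW replicate 3), 644 (AW replicate 2), 655 (IM replicate 3), 852 (IM replicate 1) or 893 (IM replicate 2). The summed level of the slow-fibre genes was 151, 1638 and 1831 in the AW mice against 78.3, 112 and 88.6 in the IM mice. Every AW mouse thus lay above every IM mouse. Of these 11 genes 3 were called higher in AW, against 9.19% of all genes, and the median difference was 3.09 on the log2 scale. With the slow-fibre score as a covariate 336 genes were called between AW and IM, 321 of them among the 1357, 223 higher in AW and 113 higher in IM.

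For single genes the sign of AW minus IM differed within each direction. Among higher genes Egln3 (1.83, adjusted p = 0.00131, limma) and Ckmt2 (1.16) were higher in AW, while 4832428D23Rik (-3.17), Actc1 (-2.41) and Pak1 (-0.41) were higher in IM. Stom (-0.0016) and Plin3 (0.10) were not called in either direction. Among lower genes Mstn (2.23), Lancl1 (1.09), Zmynd17 (0.78), Tmem100 (0.71), Ramp1 (0.69) and Pmepa1 (0.69) were higher in AW and Mylk4 (-0.70) was higher in IM, whereas Fbp2 (-0.0038), Tbc1d1 (0.19) and Igfn1 (-0.41) were not called. Of the 72 oxidative phosphorylation genes 71 were higher in AW and none in IM, with a median difference of 0.49 against 0.24 for AM minus IW. With the slow-fibre score as a covariate 53 of the 72 were higher in AW (median 0.40), and with 1 mouse left out 64 to 71 were. The AW minus IM call of Pak1 was lost with that covariate, with the replicate number as a block and without AW replicate 1 or 3 or any 1 IM mouse. That of Mylk4 was lost with the covariate and without AW replicate 2, AW replicate 3 or IM replicate 3, and that of Zmynd17 without IM replicate 1.

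Of the 1357 genes, 453 (33.4%) had a combined change within 0.1 of 0 on the log2 scale, against 43.9% of all genes tested. The median absolute change over the 1357 was 0.155 for AM minus IW and 0.423 for AW minus IM, against 0.118 and 0.148 over all genes. Actn3, the fast-fibre actinin, was 8150.3, 5690.1 and 5889 in AW and 12113, 12602 and 13326 in IM, and 7542, 9992 and 9184 in IW and 8844, 7068 and 10699 in AM. Pfkfb3, a regulator of glycolysis, was 438, 266 and 146 in AW and 496, 562 and 771 in IM, against 421, 337 and 461 in IW and 498, 425 and 282 in AM. In both genes IM was above AW while the IW and AM mice overlapped.

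The other genes chosen for a small combined change beside a large AW minus IM difference were Apol6 (1.69), Fgf1 (1.47), Evc (1.19), Hspb7 (1.18), Ces1d (-0.98) and 9530091C08Rik (-0.96). Their combined changes were between -0.10 (Evc) and 0.0047 (Hspb7). Fgf1, a fibroblast growth factor, was 22.9, 53.1 and 48.2 in AW and 13.3, 16.2 and 11.1 in IM, and 1 AW mouse lay below the IW mean. Hspb7, a small heat shock protein, was 199, 411 and 388 in AW and 122, 131 and 169 in IM. The AW minus IM calls of Fgf1, Hspb7 and Pfkfb3 were each lost without AW replicate 2 or 3 and without 1 or more IM mice. With the slow-fibre score as a covariate the calls of Evc (0.75), Ces1d (-0.56), Hspb7 (0.45) and Pfkfb3 (-1.14) were lost. Over all alternatives the difference was 0.59 to 1.84 for Fgf1, 0.96 to 2.07 for Apol6 and -1.13 to -0.57 for Actn3. A small combined change is what chose these genes, and a p-value that misses the threshold does not show equality.

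**Figure D5:**
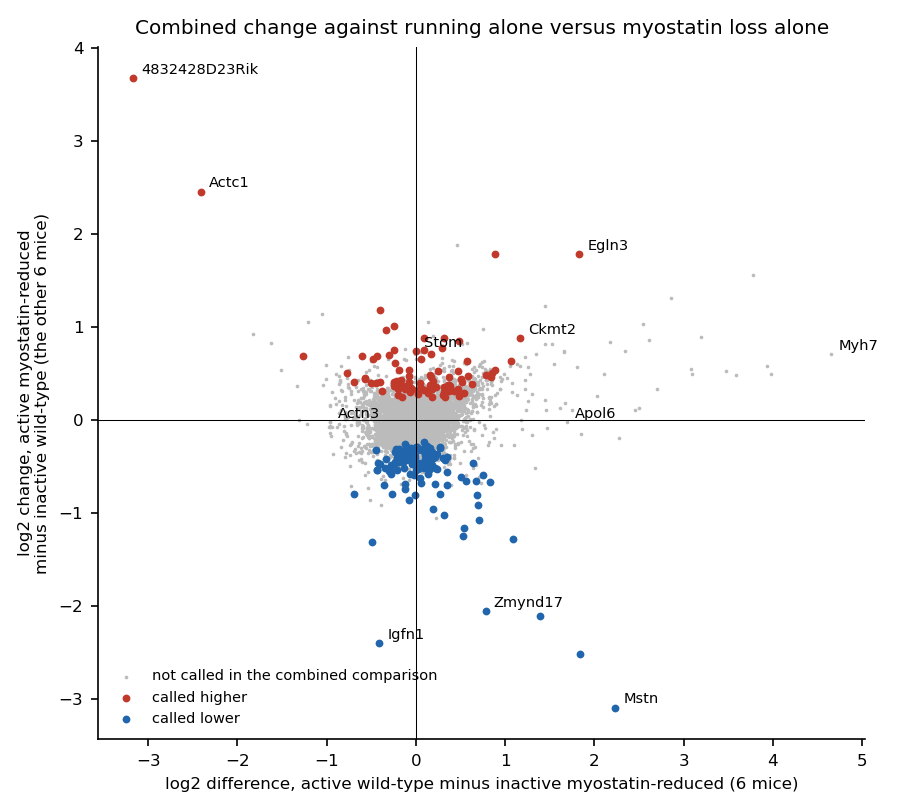
Each point is 1 of the 7261 genes, with AW minus IM in 6 mice on the horizontal axis and AM minus IW in the other 6 mice on the vertical axis, both as log2. Red and blue mark the genes called in the combined comparison, and they lie on both sides of 0 on the horizontal axis, from 4832428D23Rik (-3.17) to Mstn (2.23).

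Called genes were also placed along chromosome 1, which carries the floxed gene. Of the genes tested within 25 Mb of Mstn, 7 of 131 were called (5.34%), Mstn itself included, against 13 of 303 on the rest of chromosome 1 (4.29%) and 194 of 6727 on other chromosomes (2.88%). They were Mstn, 4832428D23Rik, Lancl1 at 13.92 Mb, Ankrd23, Tmem182, Ccnyl1 and 1110028C15Rik. The 4832428D23Rik and Lancl1 levels followed the genotype in inactive mice as well, with IM minus IW at 4.13 and -1.25. The part of sequence linked to the floxed locus was not tested.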

How the data were processed

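RNA of triceps brachii muscle was sequenced from 12 mice in 4 groups of 3 (IW, AW, IM and AM, from the sample labels). The authors sequenced polyadenylated RNA in single-end reads, mapped them with CASAVA (version not given in the sources used here) to mm9 and summed reads in RefSeq exons to genes, and counted mitochondrial genes separately. The deposited values are a signal, normalised read counts that the authors scaled to an equal trimmed mean over the non-mitochondrial genes. The columns of all 12 samples were used. Whether counting used strand was not stated, so overlapping and near-identical genes may share reads.

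The contrast AM minus IW, the departure from additivity and AW minus IM were fitted with limma 3.58.1 in R 4.3.3 (lmFit, contrasts.fit, eBayes with trend) on log2(value + 1), which understates changes of low genes. Genes averaging 10 or more normalised reads in the IW and AM mice were tested, two-sided, with Benjamini-Hochberg adjustment, and called under 0.05. The fit used all 12 mice, 1 mean per group. The genes compared and the gene lists were chosen with earlier results of these data known, and lists are described by counts and medians without a test.

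Reads assigned to the tabulated genes were estimated from the spacing of low values, 0.077 to 0.1054 normalised reads per read. A floor of 3 reads was 0.231 to 0.316. Of values under 5, 90.2% to 92.8% were whole reads within 0.1 read, and between 20 and 50 the share was 72.4% to 74.9%. Whole reads were thus not recovered and no count test was run. Floors cover counting error only. The fit was tested on simulated data.

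Named genes were Mstn, the 12 called genes with the largest change in each direction if the mean was 20 or more without overlap, called or defining list members, the 5 smallest p-values for additivity at a 12-mouse mean of 20 or more, and up to 8 genes called in AW minus IM with a combined change within 0.1 of 0. Positions came from the NCBIM37 (mm9) annotation by symbol, with 7161 tested genes matched once, 39 not matched and 61 matched more than once, and promoters from RefSeq (GRCm38.p6). Alternatives changed the mice in the fit, the pseudocount (0.1 or 5), the filter, the scaling, sample weights, the trend, a replicate block and a slow-fibre covariate, and left out each mouse. No alternative was added later.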

Additional observations from a re-analysis of the deposited data

How the results depend on the processing

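Between AM and IW, 215 genes became 38 with only the 6 mice compared and 430 with the slow-fibre covariate, and leaving out 1 mouse gave 60 to 312. Under the other alternatives the count was 150 to 221, with 170 of only 2555 genes tested at a mean of at least 50. Between AW and IM, 1357 of 7261 genes tested became 854 of 2555 with a mean of at least 50. The count was 2459 with sample weights and 336 with the slow-fibre covariate, and leaving out 1 mouse gave 544 to 1654. The departure from additivity had 0 or 1 calls with 1 mouse left out and 0 under the other alternatives. The cause was not tested.

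The titles use replicate numbers 1, 2 and 3 in every group, but same-numbered mice did not deviate together (correlations 0.16, -0.61 and 0.25 between IW and AM), and not every mouse correlated best with its own number. With a replicate block 210 genes were called between AM and IW, 175 of them among the 215, 1351 between AW and IM, and 0 for the departure from additivity.

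Among single genes Myh7 turned to -0.12 with the slow-fibre covariate and ranged from -1.32 to 2.74 with 1 mouse left out, and Ppargc1a ranged from -0.14 to 0.084. Neither was called. The median log2 change moved for the myostatin pathway with no filter (-0.12), growth signalling with upper-quartile scaling (0.0037) or the slow-fibre covariate (-0.043), neuromuscular junction and calcium with a mean of at least 50 (-0.26) and adipocyte markers with no filter (-0.38). With 1 mouse left out it ranged from -0.11 to -0.045 for the myostatin pathway, 0.070 to 0.22 for ketone and branched-chain amino acid oxidation, 0.015 to 0.085 for creatine kinase, 0.025 to 0.35 for actins, -0.081 to 0.019 for growth signalling, -0.16 to -0.091 for protein breakdown, -0.13 to 0.0085 for the circadian clock and -0.45 to -0.23 for immediate early genes. For the slow-fibre list it ranged from -0.66 to 1.52 for the vascular list from 0.20 to 0.47 and for mitochondrially encoded genes from 0.079 to 0.22. It took either sign for fast-fibre genes (-0.20 to 0.032), glycolysis and glycogen (-0.050 to 0.077), matrix (-0.17 to 0.019), glucocorticoid and stress genes (-0.11 to 0.13), myogenic regulators (-0.049 to 0.041), and the markers of adipocytes (-0.043 to 0.50), Schwann cells (-0.081 to 0.56), macrophages and leukocytes (-0.11 to 0.14), fibroblasts and tendon (-0.064 to 0.068) and muscle fibres (-0.059 to 0.071), and ranged from -0.11 to -0.034 for mitochondrial regulators. With 3 mice a group, small changes of variable genes may have been missed.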

Other observations

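Other called genes were singled out after their values were seen. For genes first named in this section, calls were not followed through the alternatives. Bmpr1a, a receptor for bone morphogenetic proteins, was 159.9, 141 and 138 in IW and 114, 104 and 98.1 in AM (log2 change -0.47), Acvr1, another receptor of that family, was 35.3, 32.2 and 35.1 and 23.5, 24.9 and 27.02 (log2 change -0.43), and Tgfb3, a transforming growth factor beta ligand, was 71.98, 63.4 and 71.8 and 51.8, 55.9 and 54.2 (log2 change -0.35). The tested receptors Acvr2a (0.10), Tgfbr1 (0.021), Tgfbr2 (-0.056) and Tgfbr3 (0.0020) were not called. In glucose and lipid control, Srebf1, a transcription factor of lipid synthesis, was 79.9, 113 and 96.8 in IW and 69.5, 64.5 and 62.6 in AM, and Insr, the insulin receptor, was 160.1, 159 and 139 and 127, 119 and 107. Both fell. Glul, which makes glutamine, rose from 138, 127 and 157 to 226, 230.0 and 227, and Alas1, the first enzyme of haem synthesis, rose from 131, 133 and 139 to 169, 181 and 171. No mouse of one group overlapped the other in the 7 called genes, as in all 215.

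At levels below that used for naming, Ak4, an adenylate kinase of mitochondria, was 6.29, 7.29 and 5.01 in IW and 27.4, 29.2 and 16.5 in AM (log2 change 1.79, adjusted p = 0.0016, limma), Dkk3, a secreted protein of the Dickkopf family, was 33.97, 32.5 and 32.98 and 5.80, 4.47 and 4.71 (log2 change -2.52), and Ddah1, which breaks down an inhibitor of nitric oxide synthase, was 33.4, 31.6 and 28.1 and 5.63, 9.55 and 4.81 (log2 change -2.11). Of the 215 called genes, 5 had a mean of at least 1000 over the 6 mice, namely Pde4dip (-0.54), Mylk4 (-0.80), Ankrd23 (-0.67), Synm (-0.54) and Ckmt2 (0.88).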
